A study of Mus musculus with 12 samples.

Results

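Mmp2, Mmp3, Mmp10, Mmp12, Mmp13 and Mmp14, with Timp1, Timp2 and Timp3, were followed in injured mouse cecum. The Mmp genes encode matrix metalloproteinases (MMPs) that stromal cells and macrophages can make, and the Timp genes encode tissue inhibitors that block MMPs. Which cells made them here was not measured. These 9 genes, chosen by symbol, are 9 of the 37074 gene names on the array and have 14 of its 56605 probes. The study heated the cecal surface of mice with cautery forceps, an injury after which the serosa scars to its neighbours in a postoperative adhesion. Total RNA of cecum tissue was hybridised to 12 one-colour arrays, 1 sample each. Of these, 3 were from sham-operated mice, which the study's methods place at 0 h. The others were from mice cauterized 3 h, 12 h or 72 h earlier, 3 for each time. The methods name C57BL/6 mice and biological triplicates; no group carries an allele or agent, and no age is given. Because the sham mice were sampled at 0 h, laparotomy and the time since it cannot be told apart from cauterization.

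MMPs are zinc enzymes that are secreted or anchored as inactive precursors and cut the proteins of the extracellular matrix once activated. Stromelysins, collagenases, gelatinases and the macrophage elastase differ in which proteins they cut, and each TIMP binds an active enzyme and closes its catalytic site. In a healing serosa they are known for clearing provisional matrix and for reshaping new collagen. Transcript levels, the only quantity measured here, do not give enzyme activity.

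A level below is the log2 of a probe's processed intensity minus the 75th percentile of its own array, so that 0 is the level of that percentile and 1 unit is a 2-fold step. Levels of different probes are not comparable with each other. A summed level of markers adds their levels without the log, so the brightest probes weigh most in it. A gene was called when its difference passed 2-fold with a limma adjusted p under 0.05, using its brightest probe, and all 3 comparisons with sham share the same 3 sham arrays. Replicate arrays of a group correlated at 0.985 to 0.992, and 60.2% to 65.2% of probes were well above background. The sham and 3 h arrays and 2 of the 12 h arrays lay on 1 slide. The last 12 h array and all 72 h arrays lay on another, scanned separately. A fit with slide as a block therefore sets the slides apart by the 12 h arrays alone, 1 of them on the second slide. The labels give male mice, but the Xist probe was above background on 12 of 12 arrays and no probe of the Y-linked Ddx3y or Eif2s3y was on any; of 6 Kdm5d probes 1 was, on 12 arrays. Epithelial, smooth muscle, fibroblast and macrophage markers of cecum were above background on every array. Of 8 mesothelial markers, 1 was called higher and 3 lower than sham at both 3 h and 12 h, and 3 higher and 0 lower at 72 h. Upk3b and Lrrn4, among the lower ones, were above background on every sham and 72 h array and on 0 arrays at 3 h and 12 h, whereas Pdpn was called higher at all 3 times and Wt1 and Upk1b at 72 h alone.

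Of the 9 genes, 5 were called higher than sham at 3 h, 5 at 12 h and 6 at 72 h, and 0 were called lower at any time. With no limit on fold, Mmp2 at 12 h and the brightest Timp2 probe at 3 h and 12 h stood lower at a limma adjusted p under 0.05. A second Timp2 probe was not lower at either time. Among all genes tested, 3.26% were called higher and 4.11% lower at 3 h, with 4.1% and 4.96% at 12 h, then 4.55% and 4.3% at 72 h. The median difference of the 9 genes on the log2 scale was 1.32, then 2.06, then 1.85 at the 3 times, beside medians over all genes of 0.08, -0.01 and -0.14. In all, 8 of the 9 were called at 1 time or more, beside 16.6% of all genes, and Timp2 was the one that was not. In RNA of cecum tissue, fewer cells of a type and less RNA per cell cannot be told apart.

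**Figure D1:**
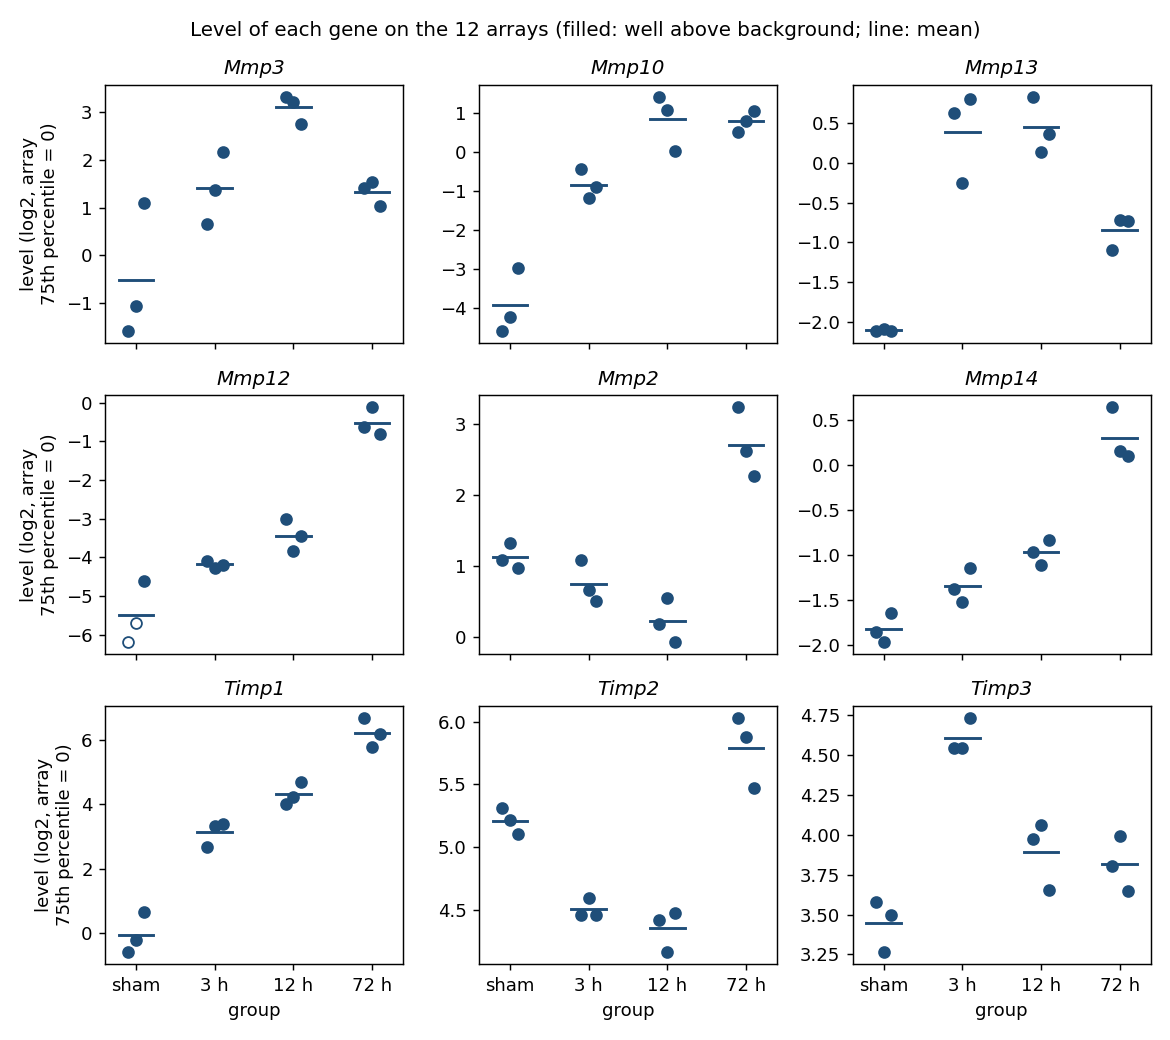
Log2 level of the brightest probe of each of the 9 genes on every array (level axis, 0 = the array's 75th percentile) for sham and 3, 12 and 72 h after cauterization; filled points are well above background, open points are not, and lines are means of 3 arrays. Each Timp1 group stood above the one before it, Mmp13 and Timp3 stood highest early, and Mmp2, Mmp12, Mmp14 and Timp2 stood highest at 72 h.

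Mmp3, Mmp10, Mmp12 and Mmp13 lie in 1 gene cluster on chromosome 9, and the bases before their start sites are shown because all 4 hold the same short element there. RefSeq promoters (GRCm38.p6) matched 8 of the 9 genes. The AP-1 element, TGAGTCA, was searched on both strands in the 250 bases before each start and was found in 4 of these 8 genes and in 4.46% of 32851 promoters. Mmp3, Mmp10 and Mmp13 also held the TATA box letters TATAAA on the sense strand, as did 7.59% of promoters. The element TTCNNNGAA, a STAT motif, was in 0 of the 8 and in 7.02% of promoters. The AP-1, TATA and STAT letters were chosen after the promoters had been read, so these shares are a description and no test. Genes were counted over all their listed starts, whereas the shares count single promoters. The 100 bases before the start of each of the 4 genes are shown with TGAGTCA (in Mmp13 its reverse complement) and TATAAA in capitals; all 4 are on the plus strand, at chr9:7445722-7445821 for Mmp3, chr9:7502242-7502341 for Mmp10, chr9:7347274-7347373 for the second of the 2 listed starts of Mmp12, and chr9:7272414-7272513 for Mmp13.
Mmp3: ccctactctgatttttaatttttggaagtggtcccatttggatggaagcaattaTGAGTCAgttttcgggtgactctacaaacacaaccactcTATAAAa
Mmp10: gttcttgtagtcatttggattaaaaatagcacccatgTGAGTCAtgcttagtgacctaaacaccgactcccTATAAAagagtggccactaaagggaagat
Mmp12: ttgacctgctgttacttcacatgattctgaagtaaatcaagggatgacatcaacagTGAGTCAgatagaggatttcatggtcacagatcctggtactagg
Mmp13: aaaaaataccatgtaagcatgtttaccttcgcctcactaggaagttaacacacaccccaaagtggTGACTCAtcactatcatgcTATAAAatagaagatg
The AP-1 letters began 46 bases before the start in Mmp3, 63 in Mmp10, 44 in Mmp12 and 35 in Mmp13. They were absent from the windows of Mmp14, Timp1, Timp2 and Timp3 and from the first listed start of Mmp12. A match describes these letters and no binding was measured.

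Mmp3 encodes stromelysin-1, which cuts proteoglycans, laminin and fibronectin and activates other MMP precursors. Its level was -1.60, -1.07 and 1.09 on the 3 sham arrays, with the 3 h arrays at 0.66, 1.36 and 2.17, the 12 h arrays at 3.32, 3.22 and 2.75, and the 72 h arrays at 1.41, 1.53 and 1.03. The 12 h arrays stood above all others, while sham replicate 3 reached into the range of the 3 h and 72 h arrays. At 12 h Mmp3 rose by 3.63 (SE 0.61, n = 3 per group, limma adjusted p = 0.00231), a 12.3-fold change. The differences at 3 h, 1.93 (SE 0.61, adjusted p = 0.0523), and at 72 h, 1.85 (SE 0.61, adjusted p = 0.058), did not pass the test. Without sham replicate 3 they came to 2.73 (adjusted p = 0.00245) and 2.66 (adjusted p = 0.00296) and were both called. By the range of the arrays, only the first place in the order of its levels, 12 h, is separate. The 3 h and 72 h arrays overlap. Against 3 h the 12 h level was 1.70 higher (SE 0.61, limma adjusted p = 0.121). From 12 h to 72 h the difference was -1.78 (SE 0.61, adjusted p = 0.0726). Neither was called.

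Mmp10 encodes stromelysin-2, the close relative of Mmp3 with a similar range of substrates. It read -4.61, -4.23 and -2.98 in sham, with the 3 h arrays at -0.43, -1.19 and -0.91, the 12 h arrays at 1.42, 1.08 and 0.01, and the 72 h arrays at 0.52, 0.81 and 1.06. Sham stood below 3 h and 3 h below the later arrays with no overlap, and the 12 h and 72 h arrays overlapped. Mmp10 rose by 3.09 (SE 0.45, adjusted p = 0.00144) at 3 h, 4.78 (SE 0.45, adjusted p = 9.45e-05) at 12 h and 4.74 (SE 0.45, adjusted p = 0.000126) at 72 h, or 8.54-, 27.4- and 26.7-fold. Against 3 h the 12 h level was 1.68 higher (SE 0.45, adjusted p = 0.0464), and Mmp10 was the 1 gene of the 9 called there, where 1.89% of all genes were called higher and 1.56% lower. That call was lost when sham replicate 2 or any 1 of the 3 h or 72 h arrays or of 12 h replicates 1 and 2 was left out, with the limma adjusted p then 0.0561 to 0.148 and the difference 1.39 to 1.89. Within the first slide the difference was 2.10 (adjusted p = 0.0635).

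Mmp13 encodes collagenase-3, which cleaves fibrillar collagens. Its sham arrays lay close together at -2.12, -2.09 and -2.12. Later arrays stood higher, with the 3 h arrays at 0.62, -0.25 and 0.81, the 12 h arrays at 0.84, 0.14 and 0.37, and the 72 h arrays at -1.10, -0.72 and -0.73. The 3 h and 12 h arrays overlapped and stood above the 72 h arrays, which in turn stood above sham. Mmp13 rose by 2.51 (SE 0.27, adjusted p = 0.000272) at 3 h, 2.56 (SE 0.27, adjusted p = 0.000165) at 12 h and 1.26 (SE 0.27, adjusted p = 0.00879) at 72 h. From 12 h to 72 h it fell by 1.30 (SE 0.27, adjusted p = 0.00873), the only fall called among the 9 genes in that comparison, where 4.33% of all genes were called higher and 3.19% lower. With slide as a block neither the 72 h rise, 1.38 (adjusted p = 0.183), nor the fall, -1.22 (adjusted p = 0.128), passed the test.

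Mmp12 encodes the macrophage elastase, an enzyme named for the cell that makes most of it. Its brightest probe read -6.19, -5.71 and -4.60 in sham, where only the last was well above background, and -4.10, -4.27 and -4.19 at 3 h. It read -3.02, -3.84 and -3.45 at 12 h and -0.64, -0.12 and -0.83 at 72 h. The 4 groups did not overlap, and the step between 12 h and 72 h was wider than the spread within either. Mmp12 rose by 1.32 (SE 0.37, adjusted p = 0.0321) at 3 h, 2.06 (SE 0.37, adjusted p = 0.00314) at 12 h and 4.97 (SE 0.37, adjusted p = 3.17e-05) at 72 h, the last a 31.4-fold change against a partly dim sham group. The 3 h call was lost without sham replicate 1 (0.97, limma adjusted p = 0.114), without sham replicate 2 (1.21, adjusted p = 0.1) and without any 1 of the 3 h arrays (1.27 to 1.36, adjusted p = 0.0681 to 0.0789). With background modelled by normexp, the 3 h and 12 h differences shrank to 0.23 (adjusted p = 0.17) and 0.25 (adjusted p = 0.135). From 12 h to 72 h Mmp12 rose by 2.91 (SE 0.37, adjusted p = 0.000865).

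The other Mmp12 probes were well above background on 0 arrays of sham, 3 h and 12 h and on 3 of 3 at 72 h. Against sham, where only a floor can be given, they were at least 2.96-fold (adjusted p = 1.33e-05) and at least 1.58-fold (adjusted p = 0.000233) higher at 72 h. All 3 probes of the gene thus rose at 72 h, and the early values rest on 1 probe. Of 10 macrophage markers 9 were also called higher at 72 h, and their summed level ran from 115.2 to 132.6 there, beside 39.4 to 42.1 in sham, 32.7 to 39.1 at 3 h and 42.2 to 44.5 at 12 h. Their part in the Mmp12 result was not tested.

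**Figure D2:**
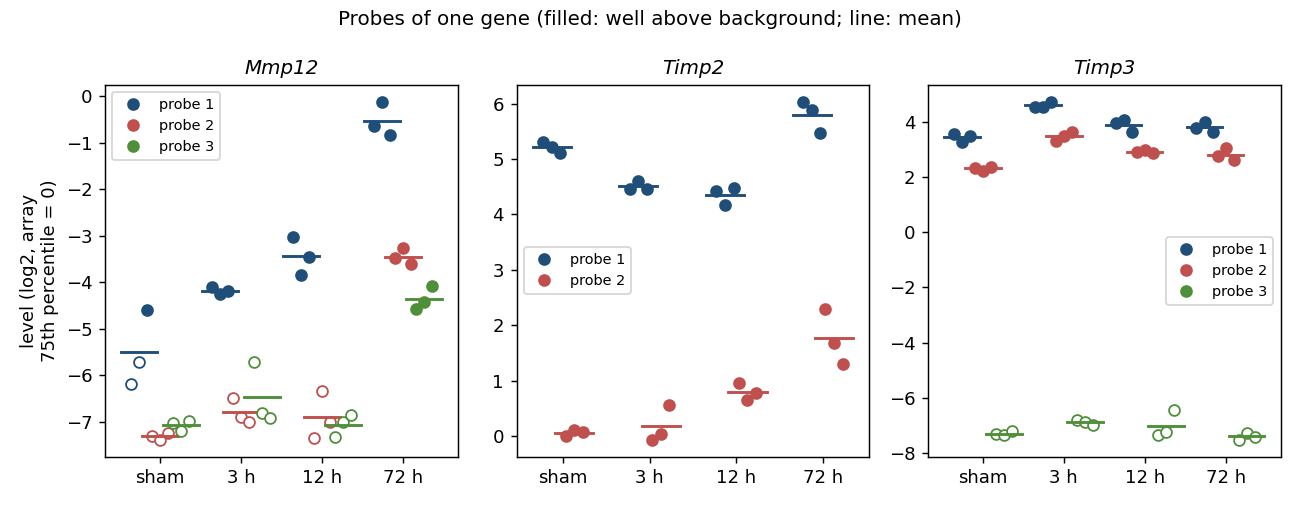
Log2 level on every array (0 = the array's 75th percentile) of each probe of Mmp12, Timp2 and Timp3, the genes with several probes, by group; filled points are well above background and lines are means of 3 arrays. All Mmp12 probes rose at 72 h, the Timp2 probes parted at 3 h and 12 h, and the third Timp3 probe stayed at background on all 12 arrays.

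Mmp2 encodes gelatinase A, which cuts denatured collagen and basement membrane collagen, and Mmp14 encodes the membrane-bound enzyme that activates it on the cell surface. Mmp2 read 1.08, 1.32 and 0.98 in sham, with the 3 h arrays at 1.09, 0.66 and 0.51, the 12 h arrays at 0.19, 0.54 and -0.07, and the 72 h arrays at 3.24, 2.62 and 2.27. The 72 h arrays stood above all others, and the 12 h arrays below sham. The 12 h difference of -0.90 (SE 0.26, adjusted p = 0.032) was under 2-fold, and without 12 h replicate 2 it was -1.07 (limma adjusted p = 0.0321) and called. At 72 h Mmp2 rose by 1.58 over sham (SE 0.26, adjusted p = 0.00247), a 2.99-fold change, and by 2.48 over 12 h (SE 0.26, adjusted p = 0.000363). With slide as a block the former was 2.01 and missed the threshold (adjusted p = 0.0515).

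Mmp14 read -1.86, -1.97 and -1.65 in sham, with the 3 h arrays at -1.37, -1.52 and -1.14, the 12 h arrays at -0.96, -1.11 and -0.83, and the 72 h arrays at 0.64, 0.16 and 0.10. Each group stood above the one before it with no overlap. The first steps were small, 0.48 over sham at 3 h (SE 0.17, adjusted p = 0.0776) and 0.86 at 12 h (SE 0.17, adjusted p = 0.0056), the latter under 2-fold. At 72 h Mmp14 rose by 2.13 over sham (SE 0.17, adjusted p = 4.9e-05) and by 1.27 over 12 h (SE 0.17, adjusted p = 0.00114), 4.37- and 2.41-fold. With slide as a block both were called, at 1.92 (limma adjusted p = 0.0154) and 1.13 (adjusted p = 0.0373). Both values rest on the 1 array of 12 h on the second slide, and 1.13 is the difference from it alone.

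Of 9 fibroblast markers, 4 were called higher at 72 h, the collagen-binding Dcn and Lum among them, and 0 lower. At 12 h 0 were called higher and 2 lower, Lum and Col6a3. Dcn, Lum and Col6a3 are also among the matrix proteins listed below. The summed level of the 9 was 150.8 to 246.2 at 72 h and 81.6 to 94.9 in sham. It was 69.3 to 74.3 at 3 h and 73.6 to 78.9 at 12 h. Dcn, the brightest, at a mean level of 5.87 in sham and 7.05 at 72 h, weighs most in these sums. The highest of these sums was on 72 h replicate 1, the array with the highest Mmp2, Mmp14, Timp1 and Timp2. Endothelial markers, of which 2 of 6 were called higher at 72 h, also had their highest sum on that array, 21.9, beside 9.14 to 9.89 in sham. At 72 h 3 of 12 epithelial and 6 of 8 smooth muscle markers were called lower, with epithelial sums of 1156 to 1528 beside 2082 to 2211 in sham. The part of these markers in the Mmp2, Mmp14, Timp1 and Timp2 results was not tested.

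Timp1 encodes a secreted inhibitor that blocks most soluble MMPs and acts poorly on Mmp14. Its level was -0.61, -0.21 and 0.64 in sham, with the 3 h arrays at 2.66, 3.33 and 3.38, the 12 h arrays at 4.01, 4.23 and 4.68, and the 72 h arrays at 6.68, 5.77 and 6.17. Each group stood above the one before it with no overlap. Timp1 rose by 3.18 (SE 0.35, adjusted p = 0.000336) at 3 h, 4.37 (SE 0.35, adjusted p = 3.87e-05) at 12 h and 6.27 (SE 0.35, adjusted p = 8.45e-06) at 72 h, or 9.09-, 20.7- and 77.2-fold. The last was the largest difference from sham among the 9 genes. The step from 3 h to 12 h, 1.18 (SE 0.35, adjusted p = 0.0673), did not pass the test, though it did without sham replicate 3 (adjusted p = 0.039), and the step from 12 h to 72 h, 1.90 (SE 0.35, adjusted p = 0.00544), did. With slide as a block the second step was 1.53 (limma adjusted p = 0.129), while the 72 h rise over sham stayed at 5.71 (adjusted p = 0.00328).

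Timp2 encodes the inhibitor that both blocks Mmp2 and, bound to Mmp14, brings its precursor to the cell surface. Its brightest probe read 5.31, 5.22 and 5.11 in sham, with the 3 h arrays at 4.46, 4.59 and 4.46, the 12 h arrays at 4.42, 4.16 and 4.48, and the 72 h arrays at 6.03, 5.88 and 5.47. The 3 h and 12 h arrays overlapped below sham, and 72 h stood above it. The differences from sham were -0.71 (SE 0.15, adjusted p = 0.0106), -0.86 (SE 0.15, adjusted p = 0.00324) and 0.58 (SE 0.15, adjusted p = 0.024), all under 2-fold. From 12 h to 72 h Timp2 rose by 1.44 (SE 0.15, adjusted p = 0.000408), or 2.71-fold.

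The second Timp2 probe did not follow the early values of the first. It read 0.00, 0.11 and 0.08 in sham, with the 3 h arrays at -0.07, 0.04 and 0.55, the 12 h arrays at 0.96, 0.64 and 0.77, and the 72 h arrays at 2.29, 1.69 and 1.31. Its differences from sham were 0.11 (SE 0.24, adjusted p = 0.767) at 3 h and 0.73 (SE 0.24, adjusted p = 0.056) at 12 h, opposite in sign to the first probe. At 72 h it rose by 1.70 (SE 0.24, adjusted p = 0.00114), 3.25-fold. Both probes were highest at 72 h, and the direction of Timp2 at 3 h and 12 h depended on the probe.

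Timp3 encodes the inhibitor that stays bound to the matrix and also blocks ADAM and ADAMTS proteases. Its brightest probe read 3.58, 3.26 and 3.50 in sham, with the 3 h arrays at 4.54, 4.54 and 4.73, the 12 h arrays at 3.97, 4.06 and 3.66, and the 72 h arrays at 3.80, 3.99 and 3.65. The 3 h arrays stood above all others, and the 12 h and 72 h arrays overlapped just above sham. Timp3 rose by 1.16 at 3 h (SE 0.15, adjusted p = 0.000654), a 2.24-fold change that quantile normalization left at 0.92. Its differences at 12 h, 0.45 (SE 0.15, adjusted p = 0.0538), and at 72 h, 0.37 (SE 0.15, adjusted p = 0.108), did not pass. With slide as a block the 12 h difference was 0.57 (limma adjusted p = 0.0242). A second probe rose by 1.18 at 3 h (SE 0.13, adjusted p = 0.000362). Its differences at 12 h, 0.60 (SE 0.13, limma adjusted p = 0.00935), and at 72 h, 0.49 (SE 0.13, adjusted p = 0.025), passed the test but were under 2-fold. The third probe was well above background on 0 of 12 arrays. Timp3 was the only gene of the 9 called at 3 h and at no later time.

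**Figure D3:**
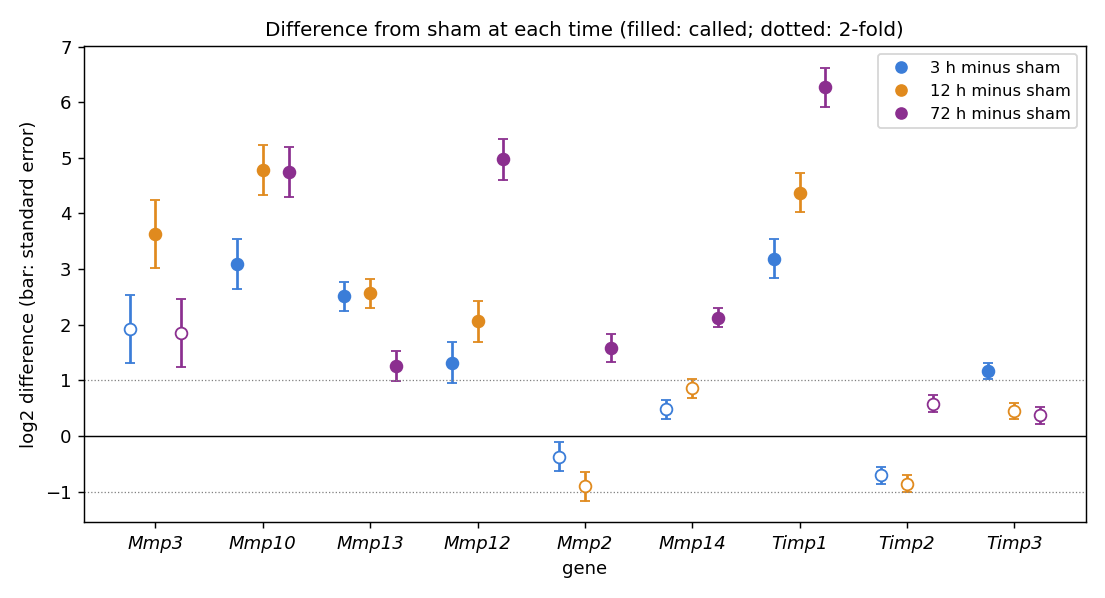
Log2 difference from sham (vertical axis, with its standard error) of the brightest probe of each gene at 3, 12 and 72 h, 3 arrays per group; filled points passed 2-fold and the limma adjusted p, open points did not, and dotted lines mark 2-fold. Timp1 reached 6.27 and Mmp12 4.97 at 72 h, Mmp10 stood at 4.78 and 4.74 at 12 h and 72 h, and Mmp13 and Timp3 were lower at 72 h than at 3 h.

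From 12 h to 72 h, 5 of the 9 genes were called higher and 1 lower. Mmp2, Mmp12, Mmp14, Timp1 and Timp2 were the 5, and Mmp13 the 1. Mmp3 differed by -1.78 (SE 0.61, adjusted p = 0.0726), Mmp10 by -0.04 (SE 0.45, adjusted p = 0.96) and Timp3 by -0.08 (SE 0.15, adjusted p = 0.725). Only 1 of the 12 h arrays shared a slide with the 72 h arrays. Against that single array, assumed to vary like the 72 h arrays, the 6 called genes kept their direction at 2.77 for Mmp2, 2.92 for Mmp12, 1.13 for Mmp14, 1.53 for Timp1, 1.31 for Timp2 and -1.22 for Mmp13, and 0 of the 9 passed limma's test at that size, with adjusted p from 0.135 to 0.694, although 8 of the 9 had an unadjusted p under 0.05.

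Sham replicate 3 had the highest sham level of 5 of the 9 genes, Mmp3, Mmp10, Mmp12, Mmp14 and Timp1. The spread of Mmp3 within sham, from -1.60 to 1.09, was the widest of the 9 genes in any group.

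The chromosome 9 cluster was then read gene by gene, because it places 4 of the 9 genes beside other MMP genes. In mm9, the build of the array's probe positions, the probes of 10 listed MMP genes lay within 414.9 kb, from Mmp13 at chr9:7282762-7282821 to Mmp7 at chr9:7697641-7697700. Between them, in order, were Mmp12 at chr9:7358559-7358618, Mmp1b, Mmp3 at chr9:7455751-7455810, Mmp1a, Mmp10 at chr9:7510011-7510070, Mmp8, Mmp27 and Mmp20. Of these 10, Mmp1a, Mmp1b and Mmp20 were well above background on 0 of 12 arrays. The remaining 7, Mmp3, Mmp10, Mmp12 and Mmp13 among them, were each called higher at 1 time or more. None of the 10 was called lower. Of all genes, 16.6% were called at 1 time or more, in either direction. Mmp1a, Mmp1b and Mmp7 also held the TGAGTCA letters in the 250 bases before a listed start, and of the 17 other MMPs these were the 3 that did, among 13 with a promoter in the table.

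The best ungapped match between probes of different genes of the 9 was 26 of 60 bases. Within the cluster the time courses differed from neighbour to neighbour. Mmp8, the neutrophil collagenase, rose by 6.99 (SE 0.72, adjusted p = 0.000234) at 3 h, 6.97 (SE 0.72, adjusted p = 0.00016) at 12 h and 5.21 (SE 0.72, adjusted p = 0.00106) at 72 h. Its neighbour Mmp10 stood lower at 3 h than at the later times, whereas Mmp13, at one end, stood highest early. Mmp7, matrilysin, an enzyme of epithelium, rose by 1.64 (SE 0.46, adjusted p = 0.0337), 3.03 (SE 0.46, adjusted p = 0.00136) and 2.31 (SE 0.46, adjusted p = 0.00672). Mmp27 was not above background on any sham or 3 h array and was at least 2.17-fold higher at 72 h (adjusted p = 0.0209). Among 11 neutrophil markers, Mmp8 included, 7, 10 and 7 were called higher at 3, 12 and 72 h. Their summed level was 81.3 to 92.5 in sham and 360.3 to 599.5 at 3 h. It was 825.4 to 865.0 at 12 h and 351.5 to 641.8 at 72 h. The brightest marker was Csf3r in sham (mean level 6.37), which was called at no time, and S100a9 at 12 h (8.93) and 72 h (8.15). From 12 h to 72 h 0 of the 11 were called higher and 3 lower, Ly6g, Ngp and Ltf. Ly6g differed from sham by -0.08 at 72 h (SE 0.55, limma adjusted p = 0.931). Of the 11 markers, Cxcr2, Ltf and Ngp were above background on 0 sham arrays. The markers' part in the Mmp8 values was not tested.

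**Figure D4:**
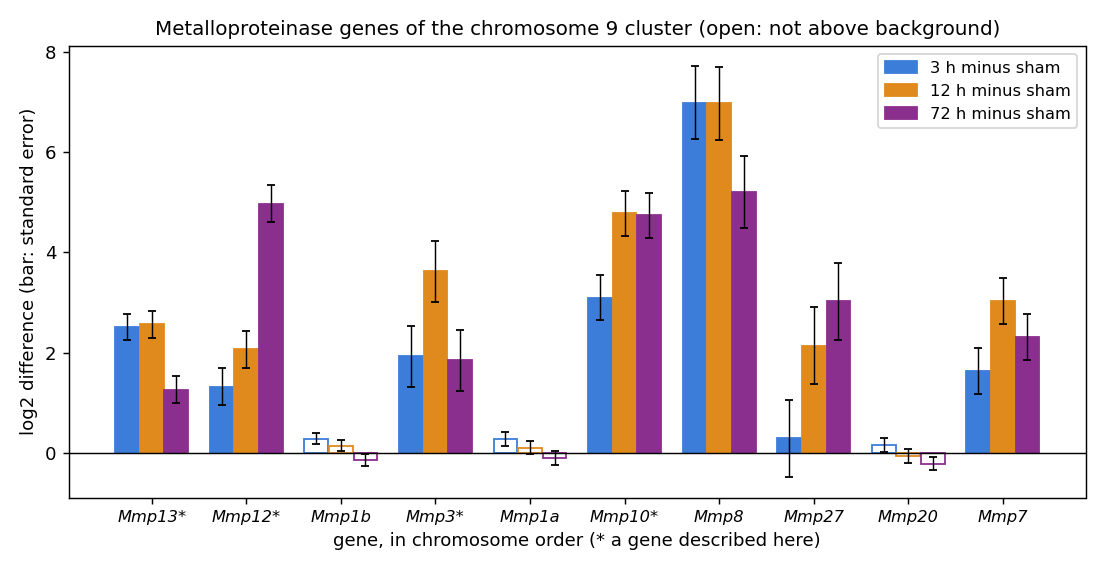
Log2 difference from sham, with its standard error, at 3, 12 and 72 h for the 10 listed MMP genes of the chromosome 9 cluster in chromosome order, 3 arrays per group; open bars are genes above background on no array. Mmp8 reached 6.99, Mmp12 stood highest at 72 h and Mmp3 at 12 h, and Mmp1a, Mmp1b and Mmp20 were at background.

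Outside the 9 genes, 17 other MMPs were listed, of which 4 were called higher and 2 lower at 3 h, with 5 and 2 at 12 h, then 7 and 0 at 72 h. The 9 genes and these 17 were not tested against each other. Of the others, Mmp9, gelatinase B, differed by 0.89 (SE 0.24, adjusted p = 0.027) at 3 h, under 2-fold, and rose by 3.38 (SE 0.24, adjusted p = 1.88e-05) and 3.67 (SE 0.24, adjusted p = 1.74e-05) later. Mmp25, a membrane-anchored enzyme of leukocytes, was above background on no sham array and was at least 12.1-fold higher at 12 h (adjusted p = 5.17e-05). The list's median was 0.29, 0.10 and 0.43 at the 3 times, beside 0.08, -0.01 and -0.14 over all genes.

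The ADAM and ADAMTS proteases, which Timp3 is known to block, numbered 26, with 6 called higher and 2 lower at 3 h, with 5 and 3 at 12 h, then 11 and 1 at 72 h. The largest changes were of Adamts4, an aggrecanase, by 5.09 at 3 h (SE 0.37, adjusted p = 3.26e-05), and of Adam8, a leukocyte protease, by 4.78 at 12 h (SE 0.27, adjusted p = 7.19e-06). Adamts1 rose by 2.86 at 3 h (SE 0.32, adjusted p = 0.000341). Adam33 fell by 2.59 at 12 h (SE 0.19, adjusted p = 2.42e-05), and Adamts19, above background on no 12 h array, was at least 3.74-fold lower there (adjusted p = 0.000355). The list's median was 0.03, 0.02 and 1.35 at the 3 times.

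Of 23 genes that activate, inhibit or clear metalloproteinases, 5 were called higher and 2 lower at 3 h, with 4 and 4 at 12 h, then 8 and 2 at 72 h, with medians of -0.02, -0.33 and 0.01. Plaur, the urokinase receptor, rose by 4.83 at 12 h (SE 0.38, adjusted p = 3.65e-05), and Thbs1, a matricellular protein that can bind MMPs, by 4.59 (SE 0.38, adjusted p = 4.24e-05). Plat, tissue plasminogen activator, rose by 2.12 at 72 h (SE 0.23, adjusted p = 0.000299). A2m, the protease-trapping macroglobulin, was above background on no sham array and at least 2.54-fold higher at 72 h (adjusted p = 0.000106).

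Among the matrix proteins these enzymes cut, most calls came at 72 h. Of 30 listed, 1 was called higher and 1 lower at 3 h, with 2 and 10 at 12 h, then 19 and 0 at 72 h, with medians of -0.35, -0.53 and 1.27. Col1a1, a chain of type I collagen, was at -0.79 at 3 h (SE 0.26, adjusted p = 0.0632), fell by 1.63 at 12 h (SE 0.26, adjusted p = 0.00179) and rose by 3.00 at 72 h (SE 0.26, adjusted p = 7.71e-05). Col5a1 and Col3a1, further fibrillar collagens, rose at 72 h by 2.51 (SE 0.34, adjusted p = 0.001) and 2.08 (SE 0.28, adjusted p = 0.000896). Vcan, a proteoglycan of provisional matrix, rose by 2.17 at 12 h (SE 0.28, adjusted p = 0.000557) and 3.04 at 72 h (SE 0.28, adjusted p = 0.000113). Tnc, an adhesion-modulating glycoprotein of wounds, rose at all 3 times, by 2.35 at 12 h (SE 0.12, adjusted p = 3.65e-06). Of 8 smooth muscle markers, 8 were called lower at 12 h, when their summed level was 172.8 to 275.9 beside 548.0 to 583.3 in sham, and their part in the substrate values was not tested. At 12 h, when 10 of these 30 genes were called lower, Mmp3, Mmp10, Mmp12, Mmp13 and Timp1 were called higher.

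Of 18 inducers of MMP and TIMP transcription, cytokines, AP-1 subunits and the transcription factors Ets1, Ets2 and Runx2, 9 were called higher at 3 h, 8 at 12 h and 8 at 72 h, and 0 were called lower, with medians of 0.97, 0.82 and 0.58. Il1b, a classical inducer of stromelysins and collagenases, rose by 8.35 at 12 h (SE 0.41, adjusted p = 3.55e-06). Il6 and Osm, cytokines that signal through gp130 and induce Timp1, rose by 7.61 at 3 h (SE 0.45, adjusted p = 1.14e-05) and 7.33 at 12 h (SE 0.43, adjusted p = 8.39e-06). Il1a was above background on no sham array and at least 45.1-fold higher at 12 h (adjusted p = 2.79e-05). Fosl1, an AP-1 subunit also at background in sham, was at least 47.8-fold higher at 3 h (adjusted p = 4.01e-06), at least 18.6-fold at 12 h (adjusted p = 8.55e-06) and at least 7.59-fold at 72 h (adjusted p = 6.19e-05). Whether any of these bears on the 9 genes was not tested.

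**Figure D5:**
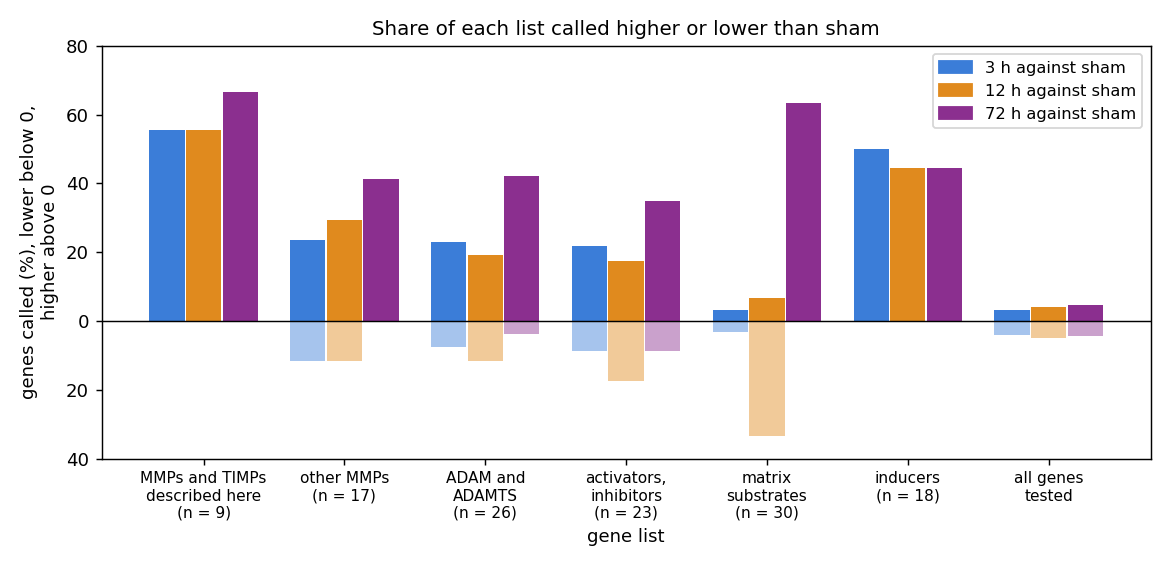
Share of the genes of each list called higher (above 0) or lower (below 0, paler) than sham at 3, 12 and 72 h, in percent, beside the share among all genes tested. Substrates were called lower at 12 h (10 of 30) and higher at 72 h (19 of 30). Of the 9 MMP and TIMP genes, 5, 5 and 6 were called higher at 3, 12 and 72 h, and 0 lower.

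The genes most like each of the 9 over the 12 arrays were found by Pearson's r among 23840 genes, as a description, since all points share the 4 groups. For Mmp2 they were Mfap4 (r = 0.986), Mrc2 (0.986) and Col5a1 (0.981), and for Timp2 Lifr (0.988), Ly6h (0.985) and Col6a3 (0.983). Mmp14 went with Armcx3 (0.979), Chsy1 (0.978) and Gng10 (0.977), and Mmp12 with Gng10 (0.965), Ffar2 (0.964) and Cd302 (0.963). For Timp1 they were Ifi202b (0.987), Tspan4 (0.983) and Clec4n (0.981). Mmp10 went with Ccdc109b (0.988), Ppbp (0.968) and Ccl24 (0.968), Mmp13 with Fmnl2 (0.975), Ugcg (0.973) and Adm (0.970), and Timp3 with Dcaf10 (0.970), Rn7sk (0.970) and Rmrp (0.962). Mmp3 had the lowest best match, Donson at 0.944, followed by Fcho2 (0.938) and Hspa5 (0.937). Among the 9 genes themselves the highest r was 0.968, between Mmp12 and Mmp14, and that of Mmp2 with Timp2 was 0.906, whereas that of Mmp13 with Timp2 was -0.66.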

How the data were processed

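Each sample's deposited scanner output holds background-corrected, processed probe intensities, made by the authors with Feature Extraction 11.5.1.1 on a SurePrint G3 Mouse GE v2 array whose probe positions are in mm9. The authors' table of log2 values, deposited with them, is GeneSpring output normalised to the 75th percentile with each probe centred, and correlated at 0.999996 with the values recomputed here; it served as an alternative. Here spots of a probe were averaged after outlier spots were left out, log2 taken, and each array's 75th percentile subtracted. Groups came from the sample labels. limma 3.58.1 (R 4.3.3) fitted group means over 12 arrays, and p-values of all 56605 probes were adjusted by Benjamini-Hochberg. The brightest probe stood for a gene. Where a probe was well above background on no array of a group, a bound is given. No control spots were tested, and the scripts were tested on simulated data. Named were the 9 genes, listed MMPs of the chromosome 9 cluster, up to 5 called genes per pathway list by size of change, and the 3 genes most correlated with each member. A gene that this rule would name among the activators and inhibitors is not reported here. The members and lists were chosen with earlier results of these data known, and the AP-1, TATA and STAT letters after the promoters had been read. Normalization, background, filter, slide, replicate, probe and test were varied, and within-slide fits were added after seeing the data. The number of arrays limits the precision, and p-values measure the spread between samples labelled as replicates.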

Additional observations from a re-analysis of the deposited data

Results flagged for a closer look

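Some genes differed between time points when the difference itself was tested by limma, which is why they are listed here. From 12 h to 72 h the log2 difference was 2.48 for Mmp2, 2.91 for Mmp12, -1.30 for Mmp13, 1.27 for Mmp14, 1.90 for Timp1 and 1.44 for Timp2. From 3 h to 12 h it was 1.68 for Mmp10. The part of the slides in these differences was not tested beyond the block and within-slide fits. For 72 h against 12 h both fits give the same values, the differences from the 1 array of 12 h on the second slide.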

How the results depend on the processing

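The count of the 9 genes called from 3 h to 12 h, 1, was the least steady: it was 2 with limma's trend and robust options or a filter on dim probes, 3 with normexp, and 0 with quantile normalization, the replicate block, only the 2 groups compared, or within the first slide (at an unadjusted p under 0.05 and any fold, 4, 6, 6 and 3). Within the second slide the 72 h against 12 h count fell from 6 to 0. Averaging all probes of a gene gave 3 genes at 3 h in place of 5. The methods' t-test, which the study's general statistics name and its array methods do not, was run paired by a replicate number that does not pair these samples. At an unadjusted p under 0.05 it called 5, 3 and 6 genes at 3, 12 and 72 h. It called 1 at 12 h against 3 h and 6 at 72 h against 12 h. These were partly other genes than in the main fit. Mmp3 stood in place of Mmp12 at 3 h and of Mmp13 at 72 h against 12 h. Timp1 stood in place of Mmp10 at 12 h against 3 h. After Benjamini-Hochberg adjustment the t-test called 0 in these comparisons and 0 of every list. Unadjusted, it called 9 other MMPs, 12 ADAM and ADAMTS, 12 activators and inhibitors, 22 substrates and 9 inducers. The ADAM and ADAMTS count, 14, was 9 with normexp and 9 with slide as a block. Slide as a block also left 4 of the 9 genes called at 72 h against sham, in place of 6. For 72 h against 12 h it left 4 in place of 6, and of the substrates 16 in place of 24. These block values rest on the 1 array of 12 h on the second slide. Leaving out 1 array gave 4 to 6 genes at 3 h, 5 to 6 at 12 h, 6 to 7 at 72 h, 0 to 3 from 3 h to 12 h, 6 to 7 from 12 h to 72 h, 8 to 10 other MMPs, 13 to 16 ADAM and ADAMTS, 10 to 13 activators and inhibitors, 21 to 26 substrates and 8 to 11 inducers. Small uncalled differences changed sign. From 12 h to 72 h, that of Mmp10 was 0.034 with the percentile over probes above background, 0.79 with slide as a block or within the second slide, and -0.45 to 0.25 without 1 array. That of Timp3 was 0.14 with quantile normalization, 0.16 with slide as a block or within the second slide, and -0.20 to 0.0017 without 1 array. From 3 h to 12 h, that of Timp2 was 0.23 with its probes averaged, and that of Mmp13 was -0.27 to 0.26 without 1 array. The cause of these changes was not tested. Samples sharing a replicate number did not deviate together (correlations of -0.16 to 0.09, 0 of 18 pairs over 0.1), so the number does not pair them. As a block it also ended the call of Mmp12 at 3 h (1.32, limma adjusted p = 0.0611) and of Mmp10 from 3 h to 12 h (1.68, adjusted p = 0.0909), and changed no other call of the 9 genes. With 3 arrays a group, a probe dim on every array of a group, as were the other Mmp12 probes in sham, gives a bound only, and the brightest Mmp12 probe, above background on 1 of 3 sham arrays, has an uncertain sham level.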
